A study of Saccharomyces cerevisiae with 9 samples.

Results

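This section describes 300 promoter windows of budding yeast that held the largest share of reads, relative to input chromatin, in each of 4 pulldowns of the ATPases Rvb1 and Rvb2. Of 7036 windows of 500 bp in the deposited promoter table, 6951 had 300 to 1000 reads in each of the 3 input libraries and were ranked. For each Rvb pulldown, log2 of the window's read count plus 2 over the library's total was set against the same value in the input of its own strain. The lowest of the 4 differences ranked the window, and the members, chosen by these Rvb promoter values, are the 300 highest, 4.32% of those ranked. All values below named "log2 over own input" are such differences of shares, so 0 is the share of the input and 1 is double it.

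Chromatin immunoprecipitation with sequencing had been done in yeast of the W303 background. In 3 strains a protein was fused to a tandem affinity purification (TAP) tag, which was Rvb1 or Rvb2 or, as the control, the glycolytic enzyme phosphoglycerate kinase (Pgk1). All cells had been grown at 30 °C to log phase and then kept without glucose for 10 min before pulldown with rabbit IgG, so no unstarved cells enter any comparison. There were 2 pulldowns for each tagged protein and 1 input for each strain, 9 libraries in all, and nothing in the labels ties the 2 pulldowns of a protein to separate cultures. The Pgk1 pulldowns therefore give the level of a tagged protein that is not a chromatin factor, under the same starvation and with the same antibody.

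Rvb1 and Rvb2 are related AAA+ ATPases that assemble into mixed rings. The rings are part of the chromatin remodelling complexes INO80 and SWR1, the second of which places the histone variant H2A.Z in nucleosomes beside promoters, and of the R2TP complex, which helps assemble other large complexes. Removal of glucose halts most translation in yeast and changes which genes are transcribed, with genes for storage carbohydrate and stress defence among those switched on.

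The 4 Rvb libraries held 1217928 to 1993420 promoter reads, the 2 Pgk1 pulldowns 806134 and 2516799, and the 3 inputs 4342277 to 4636420. The highest count of a promoter window was 1148 in each of the 9 libraries, whatever their depth, which is the number of distinct positions that single-end reads of 75 bases have over 500 bp on both strands; gene body windows reached 1148 to 1151. The members' median promoter counts were 25.2% to 47.6% of 1148 in the Rvb pulldowns, 13.4% and 32.4% in the Pgk1 pulldowns and 55.7% to 60.5% in the inputs. Differences from the input are compressed where counts near such a ceiling. The first Pgk1 library was the shallowest and ranged far more widely than the second, so both are given separately throughout.

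The Rvb values at the members' promoters chose them and are given as a description without a test. The members' median log2 over own input was 0.88 and 0.63 in the Rvb1 pulldowns and 0.84 and 0.50 in the Rvb2 pulldowns, where the other ranked windows had medians of −0.12, −0.11, −0.14 and −0.10 in the same order of libraries. The members made up 8.29% and 7.10% of the promoter reads of the Rvb1 pulldowns and 8.24% and 6.76% of those of the Rvb2 pulldowns, against 4.52% and 4.55% in the 2 matching inputs. The second Rvb2 pulldown gave the lowest of the 4 values at 209 members and so set most of the ranking. The last 3 windows inside the set were YPR170W-B and YPR169W-A, both with a minimum of 0.37, and ARC19, with 0.365. The first 3 outside were YDL190C with 0.365, the tRNA gene tV(AAC)G2 with 0.365 and HSP12 with 0.364, so the edge of the set is no gap in the data.

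**Figure D1:**
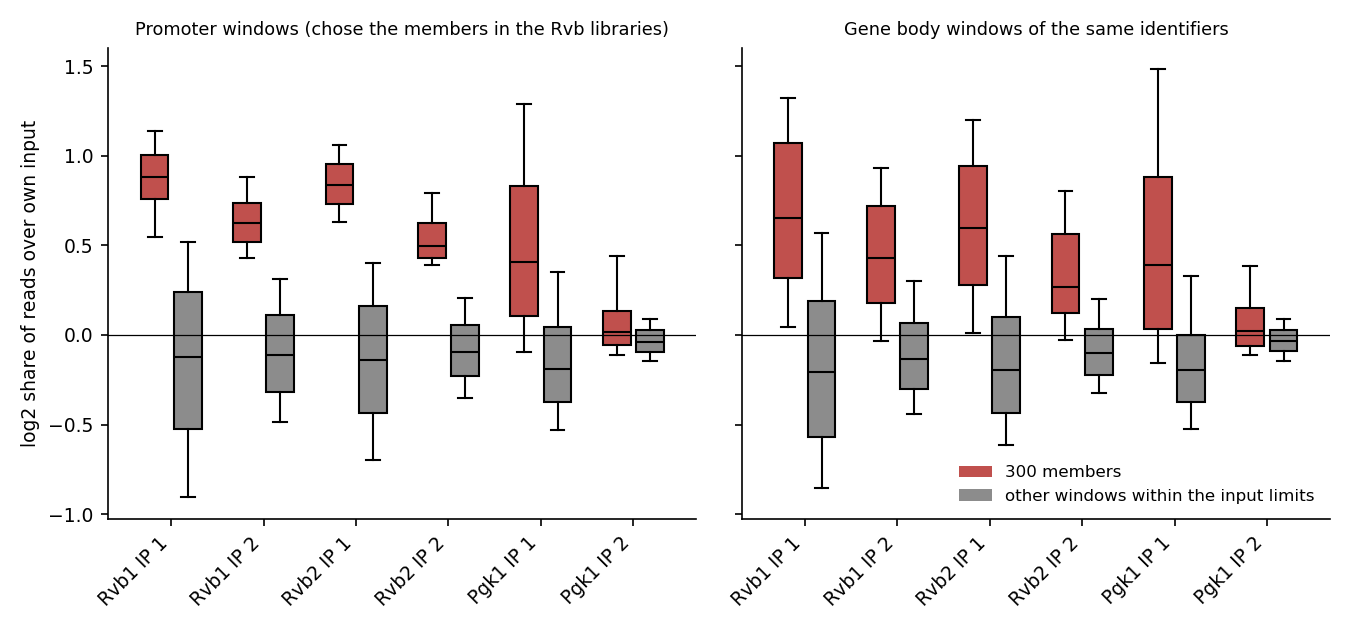
Log2 share of reads over own input in each of 6 pulldowns for the 300 members (red) and the 6651 other ranked windows (grey), at promoter windows (left) and at the gene body windows of the same identifiers (right). Boxes span the quartiles with the median as a line, and whiskers reach the 10th and 90th percentiles over windows. The Rvb promoter values chose the members. Their gene body medians lie between 0.27 and 0.65 in the Rvb libraries, and in the Pgk1 libraries they lie at 0.39 and 0.02.

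The highest minimum, 0.96, belonged to the window shared by SWR1, which encodes the motor ATPase of the SWR1 complex, and RQC1, which encodes a factor of ribosome-associated quality control. The genes are transcribed in opposite directions and their promoter windows had identical counts in all 9 libraries, so they are 1 measurement. The shared window had 854 and 480 reads in the Rvb1 pulldowns, 607 and 408 in the Rvb2 pulldowns, 89 and 318 in the Pgk1 pulldowns, and 622, 571 and 622 in the inputs for Rvb1, Rvb2 and Pgk1. Over own input this gave log2 values of 1.58 and 1.39 for Rvb1, 1.94 and 0.96 for Rvb2, and −0.25 and −0.08 for Pgk1. All 4 Rvb pulldowns were above their input and both Pgk1 pulldowns below it. In the gene body the partners differed. The SWR1 gene body had 1.46 and 0.996 in Rvb1, 1.30 and 0.43 in Rvb2, and −0.14 and −0.04 in Pgk1. The RQC1 gene body had 0.02 and 0.02 in Rvb1, −0.18 and −0.06 in Rvb2, and −0.22 and −0.12 in Pgk1. Of the 2 gene body windows, that of SWR1 alone was above its input in all 4 Rvb pulldowns. How far either window lies from the shared promoter is not given. The genes of the ATPases themselves were not members: RVB1 ranked 3935 and was below its input in all 4 Rvb pulldowns (−0.30, −0.14, −0.23 and −0.17), and RVB2 ranked 3360 and was near it (0.09, 0.08, −0.04 and −0.22).

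Most other leading members fell into sequence that is present in several copies, and no source used here gives how reads that match several places were counted, so the values of single copies there are uncertain. Of the 12 highest, 5 lay in the ribosomal DNA and ASP3 region of chromosome XII, namely YLR157C-C, YLR159C-A, YLR162W, YLR156C-A and YLR154C-H, and 4 lay near chromosome ends, namely YNL338W, YDR544C, YLL066W-B and YRF1-6. In the ribosomal DNA and ASP3 region, where tandem ribosomal RNA genes stand beside 4 copies of the gene for asparaginase II, 14 of 19 ranked windows were members (73.7%). They include ASP3-1, ASP3-2, ASP3-3 and ASP3-4 and the 5S ribosomal RNA genes RDN5-3, RDN5-4, RDN5-5 and RDN5-6. Among windows within 10 identifiers of a chromosome end, 24 of 305 were members (7.87%), among them YRF1-3, YRF1-6 and YRF1-7, which encode helicases of the Y′ subtelomeric repeat. This class is set by position alone and also takes genes such as MSC1, RSC9, COX14 and RET2. Of 285 ranked tRNA gene windows elsewhere, 14 were members (4.91%). Identifiers with no match in the reference gene table gave 21 of 593 (3.54%), and matched genes elsewhere 227 of 5749 (3.95%).

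In the classes of the ribosomal DNA and ASP3 region, chromosome ends and tRNA genes the median of the first control pulldown was above the medians of all 4 Rvb pulldowns, and that of the second was below most of them. The YRF1-6 promoter had 0.79 and 0.99 in Rvb1, 0.99 and 0.99 in Rvb2, and 1.69 and 0.57 in Pgk1. The RDN5-3 promoter had 0.84 and 0.85 in Rvb1, 0.92 and 0.76 in Rvb2, and 1.40 and 0.33 in Pgk1. Both genes had their single highest value in the first Pgk1 pulldown. Over the 14 members of the ribosomal DNA and ASP3 region the median was 0.87 and 0.78 in Rvb1, 0.96 and 0.79 in Rvb2, and 1.33 and 0.41 in Pgk1, and both Pgk1 pulldowns were above their input at all 14. Over the 24 members near chromosome ends it was 0.76 and 0.85 in Rvb1, 0.89 and 0.85 in Rvb2, and 1.21 and 0.51 in Pgk1, with both Pgk1 pulldowns above their input at 21 and both below it at 1. Over the 14 tRNA gene members it was 0.45 and 0.59 in Rvb1, 0.73 and 0.76 in Rvb2, and 1.10 and 0.47 in Pgk1, with both Pgk1 pulldowns above their input at all 14. None of these tRNA members, 2 in the ribosomal DNA and ASP3 region and 3 near chromosome ends had all 4 Rvb pulldowns above both Pgk1 pulldowns. Of all members 57.7% showed this, and of all ranked windows 17.8%.

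Because the Pgk1 pulldowns took no part in the ranking, their values are the one measurement here that is independent of it, apart from the input count limits. At promoters the members' median over own input was 0.40 in the first Pgk1 pulldown and 0.02 in the second, against −0.19 and −0.04 for the other ranked windows. Both Pgk1 pulldowns were above their input at 159 members (53.0%), where 17.1% of all ranked windows showed this, and both were below it at 41 members (13.7%), against 51.4% of all ranked windows. At the 41, all 4 Rvb pulldowns were above their input by the choice of members. Of all ranked windows, 6.98% were above it in all 4 Rvb pulldowns and below it in both Pgk1 pulldowns. Only 1733 ranked windows (24.9%) were above it in all 4 Rvb pulldowns, and 485 of these 1733 were below it in both Pgk1 pulldowns. At a further 89 members (29.7%) the first Pgk1 pulldown was above the input and the second below it, against 13.7% of all ranked windows. These signs hold for shares of the library total: TMM scaling, which centres most windows on no change, raised the median of all windows by 0.03 to 0.16 over the 6 pulldowns, and both Pgk1 pulldowns stayed below the input at 8 of the 41. With TMM scaling, 366 of all 6951 ranked windows were above the input in all 4 Rvb pulldowns and below it in both Pgk1 pulldowns. With counts corrected for the ceiling, the members' median of the 2 Pgk1 pulldowns' mean was 0.06 in place of 0.21, and that of the other ranked windows −0.25 in place of −0.11, so the difference between them was 0.31 in place of 0.32. In a test of Pgk1 pulldowns over the Pgk1 input across all windows (edgeR's quasi-likelihood test, with calls at a p under 0.05 after Benjamini-Hochberg adjustment), 0 members were called, and 1 of 7034 windows was (0.0142%). At an unadjusted p under 0.05, 15 members were higher and 0 lower, where 1.75% of all windows were higher, and DESeq2 called 0 members. The members' median fitted log2 fold change was 0.30 with a median standard error (SE) of 0.42, against a median of −0.02 over all windows. The result rests on the first Pgk1 library: without it the median was 0.04 and 0 members were called, and without the second Pgk1 library the median was 0.55 and 5 members (1.67%) were called, where 1.12% of all windows were.

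**Figure D2:**
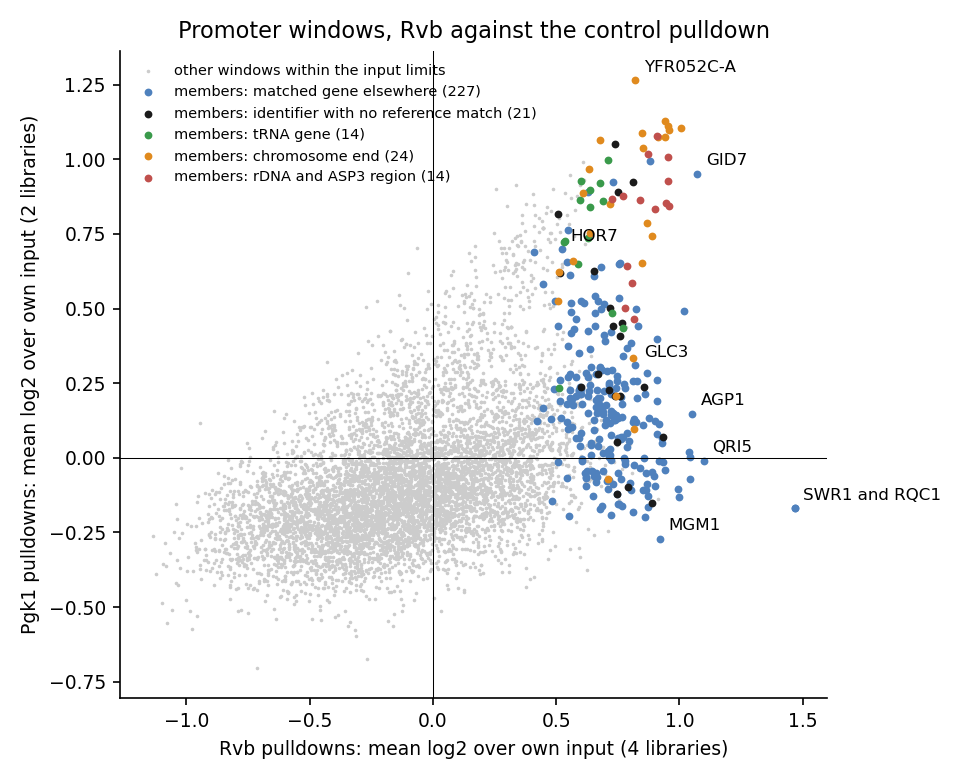
Mean log2 over own input of the 4 Rvb pulldowns (horizontal axis) and of the 2 Pgk1 pulldowns (vertical axis) at each ranked promoter window. Grey points are the 6651 other ranked windows, and members are coloured by class. Members are on the right because the Rvb values chose them. Members of the ribosomal DNA and ASP3 region, chromosome ends and tRNA genes lie high in Pgk1, while the window of SWR1 and RQC1 has a Pgk1 mean of −0.17.

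The spread of Pgk1 values among members was wide. The highest means were at YFR052C-A, YRF1-6, YRF1-3 and YDR544C, all in the class of chromosome ends, which is set by position alone. YFR052C-A had 0.76 and 0.88 in Rvb1, 0.89 and 0.75 in Rvb2, and 2.15 and 0.38 in Pgk1. Its neighbour in the table is HXK1, the gene of a hexokinase, whose promoter was not a member (rank 427) and had 0.97 and 0.13 in Pgk1. The HXK1 gene body had 1.06 and 0.75 in Rvb1, 0.98 and 0.58 in Rvb2, and 1.99 and 0.30 in Pgk1. The Pgk1 values of that gene body were close to those of the YFR052C-A promoter. GID7, which encodes a subunit of the ubiquitin ligase that degrades gluconeogenic enzymes, was the 6th highest member with 1.20 and 1.02 in Rvb1, 1.26 and 0.81 in Rvb2, and 1.55 and 0.36 in Pgk1; the gene upstream of it is GLK1, for glucokinase.

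The lowest Pgk1 means were at MGM1, which encodes a GTPase of mitochondrial fusion, NUP49, a nuclear pore subunit, LAS21, an enzyme of membrane anchor synthesis, and MCK1, a protein kinase that shares a divergent promoter with the mitochondrial ribosomal protein gene MRPS18. MGM1 had 1.18 and 0.88 in Rvb1, 1.20 and 0.42 in Rvb2, and −0.57 and 0.03 in Pgk1. NUP49 had 1.18 and 0.79 in Rvb1, 1.03 and 0.44 in Rvb2, and −0.39 and −0.0005 in Pgk1. At these promoters the Rvb and Pgk1 values did not overlap. All 4 Rvb pulldowns were above both Pgk1 pulldowns at 173 members (57.7%), where 17.8% of all ranked windows showed this; since the Rvb values chose the members, nothing is read from that count. The first Pgk1 pulldown was above all 4 Rvb pulldowns at 75 members (25.0%), near the 25.7% of all ranked windows.

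Fits of the Rvb against the Pgk1 pulldowns at promoters draw on the Rvb counts that chose the members, so they are no test of the members and nothing is read from their calls. Across all windows edgeR called 12.3% higher in Rvb1 than in Pgk1 and 12% lower, and 113 members were among those higher. For Rvb2 it called 0 windows, with 9.99% of all windows and 130 members higher at an unadjusted p under 0.05, while DESeq2 called 3.06% of windows and 89 members higher. The Rvb1 calls depended on single libraries: members were called at 0 without the first Rvb1 library (0 windows in all), at 220 without the first Pgk1 library (1922 windows) and at 56 without the second (723 windows), of which 26 were higher and 30 lower. They were called at 55, 53 and 72 without the input of the Rvb1, Rvb2 and Pgk1 strain in turn (797, 755 and 971 windows), and at 18 with the 6 pulldowns alone (438 windows).

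The gene body windows were not used by the rule, but they were read in the same Rvb libraries, so the Rvb values and calls there describe the members and are no test of them. Gene bodies of members had a median log2 over own input of 0.65 and 0.43 in Rvb1, 0.60 and 0.27 in Rvb2, and 0.39 and 0.02 in Pgk1. For the other ranked windows these medians were −0.21, −0.13, −0.19 and −0.10 in the Rvb libraries and −0.20 and −0.04 in the Pgk1 libraries. The gene body was above the input in all 4 Rvb pulldowns at 239 members (79.7%), where 20.9% of all ranked windows showed this, and below it in all 4 at 12 members (4.0%), against 50.2%. Both Pgk1 pulldowns were above their input in the gene body at 156 members (52.0%), against 16.1%. The promoter was above the gene body in all 4 Rvb pulldowns at 173 members (57.7%), where 29.7% of all ranked windows showed this, and nothing is read from that share since the promoter was chosen to be high. Over the means of the 4 libraries the gene body was the higher window at 89 members (29.7%), against 46.7% of all ranked windows. In the first Pgk1 pulldown it was the higher window at 153 members (51.0%), near the 50.9% of all ranked windows. All 4 Rvb values were above both Pgk1 values in the gene body at 87 members (29.0%), where 12.6% of all ranked windows showed this.

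Gene bodies highest in Rvb were again those of repeated or poorly covered sequence. YLR154C-H in the ribosomal DNA had 1.51 and 1.86 in Rvb1, 2.08 and 1.51 in Rvb2, and 2.50 and 0.84 in Pgk1. YBR012C and tK(CUU)C are among the 4 members whose gene body inputs lay outside 300 to 1000 reads, with 1 and 13 reads in the Rvb1 input, so their gene body ratios rest on few counts. The lowest Rvb gene bodies were those of DUS3, which encodes a tRNA dihydrouridine synthase, RBG1, a GTPase bound to ribosomes, YDR341C, and SSK2, a kinase of the osmotic stress pathway. The DUS3 promoter had 0.74 and 0.64 in Rvb1, 0.72 and 0.42 in Rvb2, and 0.32 and −0.02 in Pgk1. Its gene body had −0.87 and −0.29 in Rvb1, −0.75 and −0.11 in Rvb2, and −0.07 and −0.16 in Pgk1. At DUS3 each of the 4 Rvb libraries was above its input at the promoter and below it in the gene body.

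The Pgk1 libraries, which took no part in the ranking, allow a test at gene bodies too. With edgeR's quasi-likelihood test across all gene body windows, 0 members were called for Pgk1 over its own input, where 0.0426% of windows were. At an unadjusted p under 0.05, 12 members were higher, where 0.91% of all windows were, and DESeq2 called 0. Without the second Pgk1 library 7 members (2.33%) were called, where 0.739% of all windows were.

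The same fits hold the Rvb libraries that chose the members, and the calls below are a description. For Rvb1 over its own input 1 member was called, the alanine tRNA gene tA(AGC)K2, where 0.0711% of windows were called and 0.0569% called higher. That call was lost without the input of either other strain, without the second Rvb2 library and with DESeq2. The members' median fitted log2 fold change for Rvb1 over its own input was 0.68, against −0.02 over all windows. Without the second Rvb1 library these medians were 0.82 and −0.02. For Rvb2 over its own input edgeR called 0 windows, with 25 members higher before adjustment (p under 0.05), where 1.75% of all windows were, and DESeq2 called none. Against Pgk1, the gene body was called higher in Rvb1 at 47 members, where 6.7% of all windows were, and lower at 1, YER137C, where 7.08% were. The highest fitted difference among these 47 was at SWR1, with a log2 fold change of 1.42 (SE 0.31), followed by COA3, an assembly factor of cytochrome c oxidase, with 1.35 (SE 0.25). For Rvb2 against Pgk1 edgeR called 0 windows, with 55 members higher before adjustment (p under 0.05), where 5.7% of all windows were, and DESeq2 called none.

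The 48 members called for Rvb1 against Pgk1 gene bodies (16.0%, against 13.8% of all windows in either direction) depended on single libraries. Members were called at 3, 5 and 11 without the input of the Rvb1, Rvb2 and Pgk1 strain in turn, of 51, 89 and 292 windows. With the 6 pulldowns alone they were called at 4, of 128 windows. With all libraries the members' median fitted log2 fold change was 0.23, against −0.05 over all windows. Without the second Rvb1 library these medians were 0.35 and −0.06, and without the first Pgk1 library 0.59 and −0.02. Without the first Rvb1 library they were 0.08 and −0.04, and without the second Pgk1 library −0.01 and −0.03. Each of these fits leaves 1 library in a group, so their calls are not given.

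**Figure D3:**
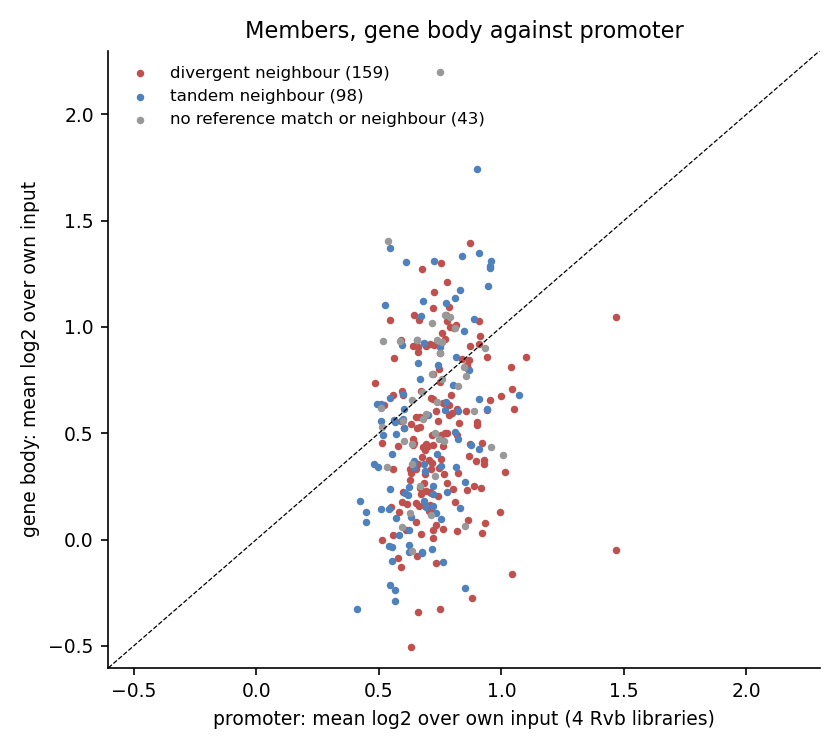
Mean log2 over own input of the 4 Rvb pulldowns at the promoter (horizontal axis) and the gene body (vertical axis) of each of the 300 members. Points are coloured by the upstream neighbour in the reference table. The dashed line marks equal values, and 89 members lie above it. SWR1 and RQC1 share the point farthest right at the promoter, with SWR1 high and RQC1 near 0 in the gene body.

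By gene function, 74 members belonged to at least 1 of 37 gene lists, which together hold 1316 ranked windows, and each list's share of members is set against the 4.32% of all ranked windows. The histone genes, core, variant and linker, had the highest share of these lists, with 6 of 11 (54.5%), all 6 among the 8 core histone genes, followed by glycolysis and fermentation with 11 of 29 (37.9%), storage carbohydrate with 7 of 23 (30.4%) and general stress genes with 8 of 33 (24.2%). Single libraries moved some of these counts: storage carbohydrate had 4 members without the first Rvb1 library and general stress 3 without the second Rvb2 library, while ranking by the mean of the 4 Rvb pulldowns left 3 histone members. Amino acid and ammonium permeases had 6 of 28 (21.4%) and transcription factors of carbon and stress responses 6 of 37 (16.2%), but these 2 lists were drawn up after the members had been seen. At the other end, cytosolic ribosomal protein genes had 1 of 138 (0.725%), ribosome biogenesis genes 0 of 130, snoRNA genes 0 of 81, DNA replication genes 0 of 54 and meiosis genes 0 of 37. Since values of these libraries chose the members, the shares are a description and no test was made.

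**Figure D4:**
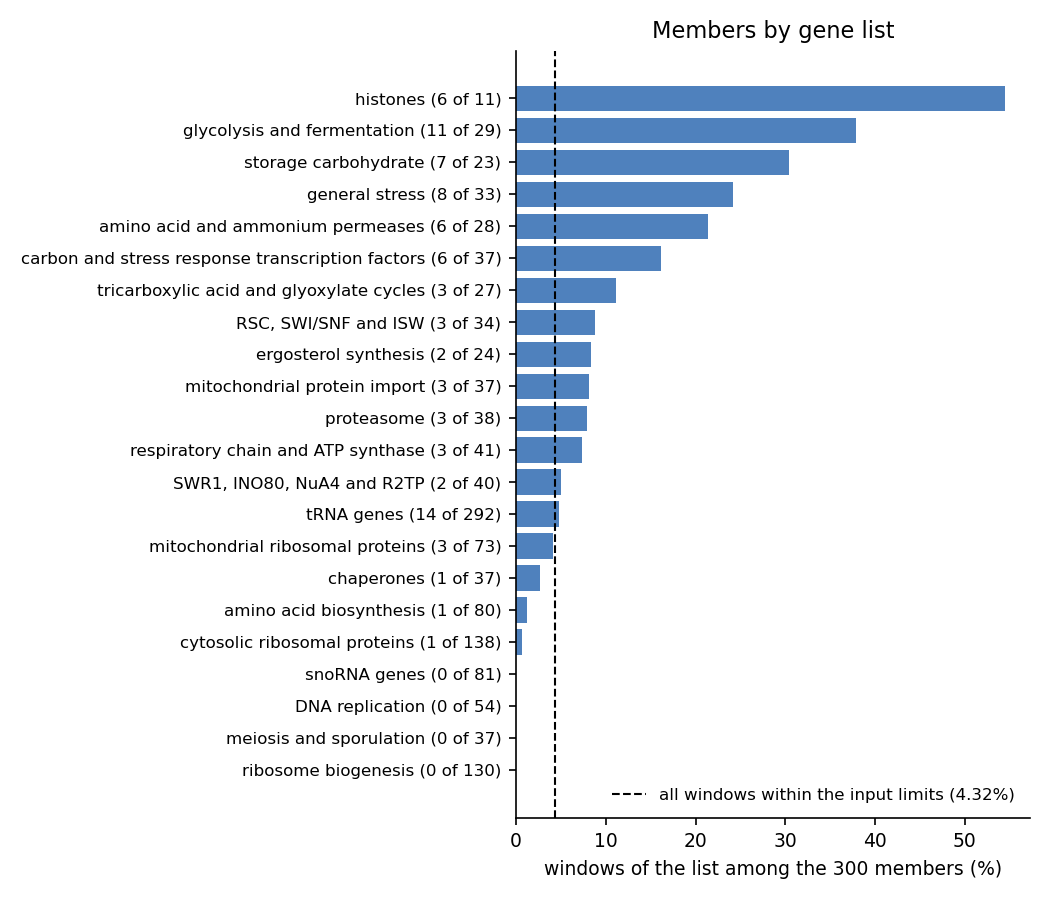
Share of each gene list's ranked windows that are among the 300 members, with the number of members and of ranked windows in brackets. The dashed line is the 4.32% of all ranked windows. Histone genes stand at 54.5% and ribosome biogenesis genes at 0.

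Among glycolytic and fermentative genes the members were GPD2 and GPP1, which make glycerol, ADH1 and ADH3, which encode alcohol dehydrogenases, PDC1 for pyruvate decarboxylase, ENO1 and ENO2 for enolase, GPM1, PGK1, TDH3 and FBA1. GPD2 had 1.07 and 0.77 in Rvb1, 0.97 and 0.66 in Rvb2, and 0.49 and 0.08 in Pgk1. ENO2 had 1.04 and 0.64 in Rvb1, 0.89 and 0.53 in Rvb2, and 0.39 and 0.10 in Pgk1. At both promoters the 4 Rvb values lay above the 2 Pgk1 values. This held for 5 of the 11 genes at the promoter and for 0 of the 11 in the gene body, where the first Pgk1 pulldown was high. Over all members these shares were 57.7% and 29.0%, and over all ranked windows 17.8% and 12.6%. The ENO2 gene body had 1.34 and 1.03 in Rvb1, 1.14 and 0.71 in Rvb2, and 1.49 and 0.22 in Pgk1. PGK1, the gene of the control protein itself, had promoter values of 0.53 and 0.45 in Rvb1, 0.74 and 0.47 in Rvb2, and 0.74 and 0.01 in Pgk1, and gene body values of 1.22 and 0.85 in Rvb1, 1.20 and 0.85 in Rvb2, and 1.60 and 0.26 in Pgk1. The gene body was higher than the promoter in the mean of the Rvb libraries at 7 of the 11 and in the first Pgk1 pulldown at 10 of the 11, shares that stood at 46.7% and 50.9% over all ranked windows. Genes just short of the set included TDH1 (rank 405), HXK1 (427), GPD1 (434), PFK2 (463) and TPI1 (478), while ADH4 ranked 4999. Reads of near-identical copies such as ENO1 and ENO2 cannot be told apart where the sequences match.

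The storage carbohydrate members were GLC3, GSY1 and GPH1, which branch, extend and break down glycogen, UGP1 and PGM2, which supply activated glucose, and TPS1 and TPS3 of trehalose synthesis. GLC3 had the highest minimum of them, with 0.87 and 0.77 in Rvb1, 0.93 and 0.72 in Rvb2, and 0.54 and 0.08 in Pgk1. GSY1 had 0.99 and 0.63 in Rvb1, 0.91 and 0.56 in Rvb2, and 0.63 and 0.05 in Pgk1. GPH1 had 0.87 and 0.92 in Rvb1, 0.97 and 0.45 in Rvb2, and 0.78 and −0.01 in Pgk1. Only GLC3 and TPS3 of the 7 had all 4 Rvb values above both Pgk1 values, beside 57.7% of all members and 17.8% of all ranked windows. In the gene body, GLC3 had 0.86 and 0.53 in Rvb1, 0.76 and 0.28 in Rvb2, and 1.37 and 0.13 in Pgk1, so the first Pgk1 pulldown was the highest of the 6. The gene body was above the promoter in the first Pgk1 pulldown at 6 of the 7 and in the Rvb mean at 0 of the 7.

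General stress members were SOD1, for superoxide dismutase, CTT1, for cytosolic catalase, MSC1, DDR2, HOR7, RTC3, TMA10 and STF2. SOD1 had 0.85 and 0.65 in Rvb1, 0.83 and 0.56 in Rvb2, and 0.74 and 0.10 in Pgk1. HOR7 was the highest of them in Pgk1, with 0.49 and 0.46 in Rvb1, 0.69 and 0.46 in Rvb2, and 1.25 and 0.14 in Pgk1. CTT1 had 0.98 and 0.74 in Rvb1, 0.96 and 0.49 in Rvb2, and 0.20 and −0.09 in Pgk1, with no overlap. All 4 Rvb values were above both Pgk1 values at 3 of the 8, CTT1, MSC1 and RTC3. Of all members 57.7% showed this, and of all ranked windows 17.8%. All 8 gene bodies were above their promoters in the first Pgk1 pulldown. Of the heat shock genes named here none was a member, although HSP12 was the third window outside the set, with 0.51 and 0.36 in Rvb1, 0.67 and 0.40 in Rvb2, and 0.21 and 0.08 in Pgk1; HSP30 ranked 542, HSP104 834 and HSP26 3571. HSP26, a small heat shock protein gene, was below its input in all 6 pulldowns by share of the library total, and its fitted Pgk1 log2 fold change after TMM scaling was 0.03 (SE 0.19).

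The 6 histone members form 3 divergent pairs, each with 1 promoter region: HTA1 with HTB1 for H2A and H2B, and HHT1 with HHF1 and HHT2 with HHF2 for H3 and H4. They are therefore at most 3 independent regions. HTB1 had 0.77 and 0.53 in Rvb1, 0.83 and 0.55 in Rvb2, and 0.35 and 0.06 in Pgk1. It was the only 1 of the 6 with all 4 Rvb values above both Pgk1 values, beside 57.7% of all members and 17.8% of all ranked windows. Its partner HTA1 had 0.80 and 0.42 in Rvb1, 0.67 and 0.48 in Rvb2, and 0.60 and 0.10 in Pgk1, which overlap. HHT2 had 0.89 and 0.54 in Rvb1, 0.76 and 0.47 in Rvb2, and 0.48 and −0.03 in Pgk1, where the first Pgk1 value overlaps the lowest Rvb value. Of the other histone windows, HTA2 ranked 304 and HTB2 386, and HTZ1, which encodes the H2A.Z that SWR1 deposits, ranked 883. The linker histone gene HHO1 ranked 4040 and the centromeric histone gene CSE4 ranked 5531.

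The 6 permease members had median Pgk1 promoter values of 0.13 and −0.05 and the 6 transcription factor members 0.15 and −0.07, with single values up to 0.57 at HAP1. AGP1, a broad amino acid permease, had 1.28 and 0.94 in Rvb1, 1.28 and 0.70 in Rvb2, and 0.29 and 0.01 in Pgk1. OPT1, an oligopeptide transporter, had 0.96 and 0.72 in Rvb1, 0.96 and 0.64 in Rvb2, and 0.04 and −0.09 in Pgk1. MEP1 (an ammonium permease), GAP1 (the general amino acid permease), PUT4 (a proline permease) and BAP2 (a branched-chain amino acid permease) complete the list. All 4 Rvb values were above both Pgk1 values at 5 of the 6 promoters and in 5 of the 6 gene bodies, beside 57.7% and 29.0% of all members. Of the transcription factors, MIG1, the repressor of glucose-repressed genes, had 0.94 and 0.67 in Rvb1, 1.17 and 0.63 in Rvb2, and −0.14 and −0.08 in Pgk1. HAP1, the haem-responsive activator, had 0.99 and 0.58 in Rvb1, 0.72 and 0.54 in Rvb2, and 0.57 and 0.02 in Pgk1. The other 4 were MSN4 and GIS1, activators of stress and starvation genes, USV1, and NRG2, a repressor. All 4 Rvb values were above both Pgk1 values at 5 of these 6 promoters and in 0 of the 6 gene bodies. Over all members these shares were 57.7% and 29.0%, and over all ranked windows 17.8% and 12.6%. Nothing is read from the promoter counts of either list, since the Rvb values chose the members.

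**Figure D5:**
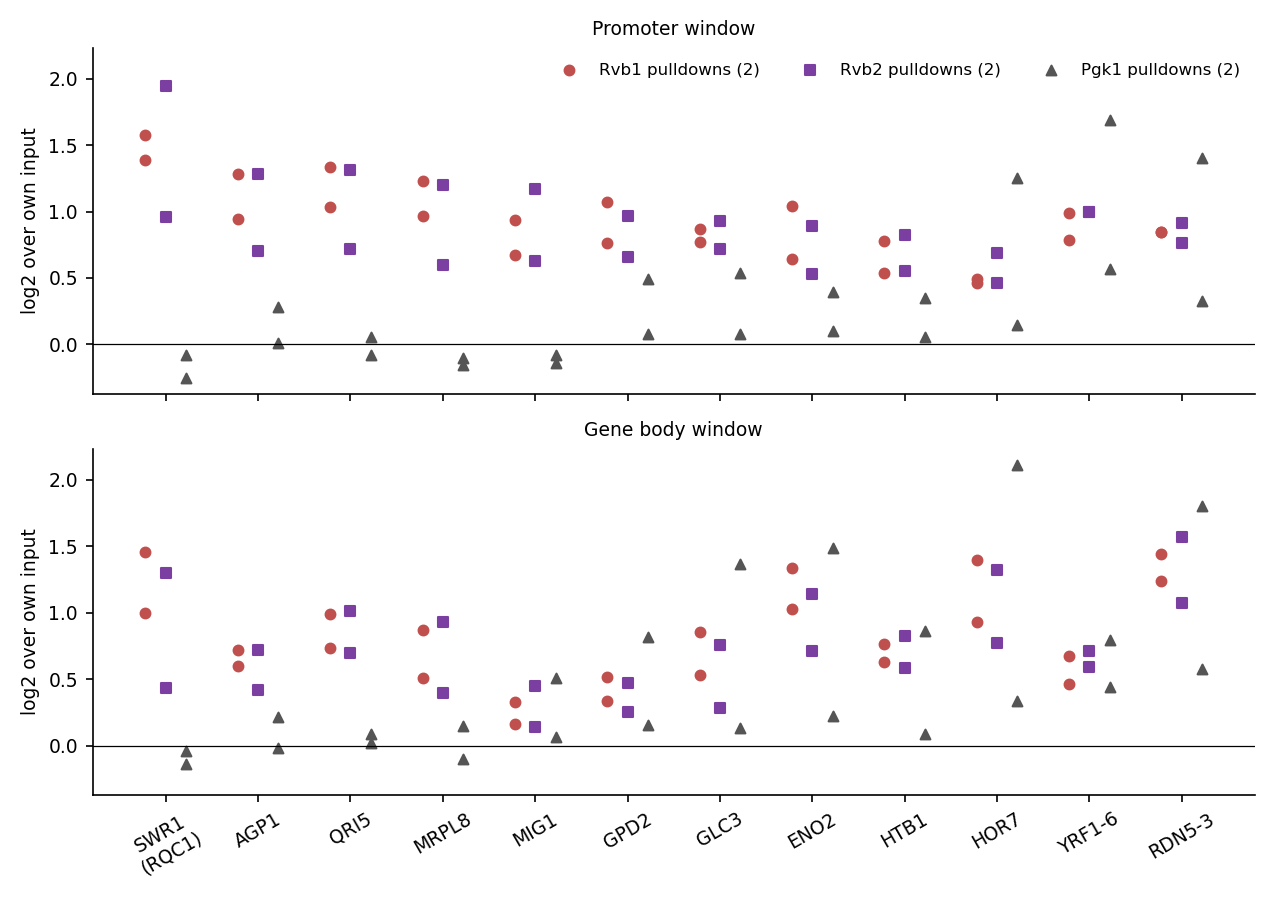
Log2 over own input of each pulldown at the promoter (top) and gene body (bottom) of 12 members. Circles are the 2 Rvb1, squares the 2 Rvb2 and triangles the 2 Pgk1 libraries. At SWR1, AGP1, QRI5, MRPL8, MIG1, GPD2, GLC3, ENO2 and HTB1 all Rvb promoter values are above the Pgk1 values. Of all members 57.7% show this, and of all ranked windows 17.8%. At HOR7, YRF1-6 and RDN5-3 the first Pgk1 promoter value is the highest.

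Among mitochondrial genes, QRI5 and MSS51, a divergent pair whose products act in expression of the mitochondrial COX1 message, were both members. QRI5 had 1.33 and 1.04 in Rvb1, 1.32 and 0.71 in Rvb2, and 0.06 and −0.08 in Pgk1. Its gene body had 0.99 and 0.73 in Rvb1, 1.01 and 0.69 in Rvb2, and 0.09 and 0.02 in Pgk1, again with no overlap. QRI5 was picked for this description after its values had been seen. Mitochondrial ribosomal protein genes gave 3 members of 73 (4.11%), MRPL8, MRPS18 and MRPL4, near the share of all windows, but 6 without the second Rvb2 library. MRPL8 had 1.23 and 0.96 in Rvb1, 1.20 and 0.60 in Rvb2, and −0.10 and −0.16 in Pgk1. All 3 had both Pgk1 pulldowns below the input by share of the total; with TMM library sizes the first Pgk1 pulldown was above it at all 3. Mitochondrial import gave 3 of 37 (8.11%), with OM14, an outer membrane protein, and MIM2, which helps insert outer membrane proteins, the highest. The tricarboxylic acid and glyoxylate cycle genes gave CIT2, MDH2 and MDH1, 3 of 27 (11.1%), and the respiratory chain and ATP synthase list 3 of 41 (7.32%), led by STF2 and INH1, which regulate the ATP synthase. The last count was 0 without the second Rvb2 library, and 1 without the first Rvb1 library, with counts corrected for the ceiling and by the mean of the 4 pulldowns.

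For chromatin remodelling, the complexes that hold or neighbour Rvb1 and Rvb2 (SWR1, INO80, NuA4 and R2TP) gave 2 members of 40 (5.0%), SWR1 and IES6, the second a subunit of INO80. IES6 had 0.89 and 0.56 in Rvb1, 0.87 and 0.66 in Rvb2, and 0.46 and 0.01 in Pgk1. RSC, SWI/SNF and ISW gave 3 of 34 (8.82%), led by SNF11 of SWI/SNF and IOC2 of an ISW complex; this list too was drawn up after the members had been seen. IOC2 had 1.16 and 0.73 in Rvb1, 1.16 and 0.51 in Rvb2, and −0.08 and −0.01 in Pgk1. The proteasome gave 3 of 38 (7.89%), led by the core subunit PRE7 and the deubiquitinase RPN11, and ergosterol synthesis 2 of 24 (8.33%), ERG27 and ERG25, of which 1 was left without the first Rvb1 or without the second Rvb2 library. ERG27 had 0.92 and 0.61 in Rvb1, 0.82 and 0.57 in Rvb2, and −0.08 and −0.09 in Pgk1. Its gene body had 0.18 and −0.01 in Rvb1, 0.23 and 0.10 in Rvb2, and −0.39 and −0.07 in Pgk1, close to the input in each Rvb library. The only chaperone gene was CCT6 and the only cytosolic ribosomal protein gene RPL15B, which has a near-identical copy.

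By their order in the deposited promoter counts, the members fell into 194 runs of adjacent identifiers, with 118 members alone, 54 runs of 2 and 22 runs of 3 or more. The longest run was of 6, ANP1, HYP2, UTR5, MTC7, tS(AGA)E and YEL034C-A. The members are thus fewer than 300 independent regions. Matches in the reference table were found for 257 members (85.7%), as for 86.6% of all ranked windows. Of these 257, 159 (61.9%) had an upstream neighbour transcribed in the opposite direction. This compares with 51.5% of all matched ranked windows and 2915 of 5716 of those that are not members (51.0%). At 92 of these 159 (57.9%) the partner was a member too, where 151 of all 3074 divergent ranked windows (4.91%) had a member as partner. The 151 include the 92. Divergent partners can hold the same reads, as SWR1 and RQC1 do, so nothing is read from the contrast of these 2 shares. Members with a divergent neighbour had median Pgk1 values of 0.27 and −0.01, and those with a tandem neighbour 0.47 and 0.04. All 4 Rvb values lay above both Pgk1 values at 117 of 159 divergent (73.6%) and 47 of 98 tandem members (48.0%), where 24.5% of all divergent and 15.4% of all tandem ranked windows showed this; the Rvb values chose the members and the difference was not tested. Within 2 identifiers of a tRNA gene, 50 members were found (16.7%), against 13.4% of the other ranked windows.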

How the data were processed

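The authors deposited raw read counts per gene for promoter windows and for gene body windows of 500 bp, 7036 identifiers each. The submitters' processing notes name Bowtie2, bedtools, SAMtools, Picard, deepTools and FastQC, without role, order or version. The libraries were single-end, read on a NextSeq 500 over 75 cycles, per the labels. The sources used here do not give the build, the placement of windows or the treatment of duplicate or multiply mapping reads. The highest promoter count was 1148 in every library and the highest gene body count 1148 to 1151, so high counts are compressed; 1148 was taken as the ceiling in the alternative that corrects for it.

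The 300 members were ranked as described at the outset. Of the identifiers, 6078 were matched by locus tag or symbol to the R64 reference table, used only for names and neighbours; no coordinates are given. Counts were tested with edgeR 4.0.16 (R 4.3.3) after filterByExpr and TMM scaling. Contrasts over own input came from 1 fit of 9 libraries in 6 groups (3 residual degrees of freedom), and contrasts of pulldowns from a fit in 4 groups (5 residual degrees of freedom). DESeq2 1.42.0 was an alternative. Each SE is the log2 fold change over the size of the test statistic. The spread that p-values measure is that between these libraries and may be technical. Only the edgeR fit in 4 groups was run on simulated data, for Rvb1 against Pgk1 at promoters. Those data had the same spread at every window and no ceiling on counts. The fit in 6 groups and DESeq2 were not checked in this way.

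Members and gene lists were chosen with earlier results of these data known. The named genes are those of the 12 highest minima, the 4 highest and 4 lowest Pgk1 promoter and Rvb gene body means, the 2 highest of each list, windows at the edge of the set, and SWR1, RQC1, RVB1, RVB2, PGK1, GSY1, GLC3, GPH1, HXK1, HSP26, HSP12, HSP30 and HSP104; others were named after their values were seen. The planned description of GC content and motifs was not run, since it needs the windows' sequence.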

Additional observations from a re-analysis of the deposited data

Results flagged for a closer look

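At 41 members (13.7%) all 4 Rvb pulldowns were above their own input at the promoter while both Pgk1 pulldowns were below theirs, which 485 of all 6951 ranked windows showed (6.98%). The opposite signs are what brought these windows up for a closer look, and the difference between the proteins was not tested here for that count, since the Rvb values chose the members. The signs hold for shares of the library total. With TMM library sizes, an alternative chosen after seeing the data, both Pgk1 pulldowns stayed below the input at 8 of the 41, and the first was above it at 32. On that scale 8 of the 300 members showed the opposite signs, against 366 of all 6951 ranked windows. By share of the library total, all 300 members were above their input in all 4 Rvb pulldowns by the rule. Only 1733 of the 6951 ranked windows (24.9%) were, and 485 of these 1733 had both Pgk1 pulldowns below theirs. The shares of members and of all ranked windows thus have unlike bases, and nothing is read from their difference.

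Those with the highest minima of the 41 are named here. The mean Pgk1 log2 over own input was −0.17 at the shared window of RQC1 and SWR1, −0.11 at MIG1, −0.13 at MRPL8, −0.086 at ERG27 and −0.0703 at PTC6, a gene for a mitochondrial protein phosphatase. With TMM library sizes the first and second Pgk1 values were −0.09 and −0.05 at SWR1, 0.02 and −0.05 at MIG1, 0.06 and −0.13 at MRPL8, 0.08 and −0.06 at ERG27, and 0.16 and −0.11 at PTC6, so of these windows that of RQC1 and SWR1 alone kept both below the input.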

How the results depend on the processing

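Membership kept 299 and 297 windows with 0.5 or 10 added to counts, 295 with TMM library sizes, 288 with input limits of 100 to 1100, 273 with the mean of the 3 inputs, 270 with counts corrected for the ceiling, 262 without the ribosomal DNA and ASP3 region and chromosome ends (an alternative chosen after seeing the data) and 244 by the mean of the 4 pulldowns, and 211 to 299 when 1 Rvb library was left out, with 211 without the second Rvb2 library. TMM raised the median of all windows by 0.03 to 0.16 at promoters and 0.04 to 0.19 at gene bodies, so signs over own input depend on scaling, but left the difference between members and other windows at 0.32 for Pgk1 promoters, and at 0.70 for Rvb1, 0.60 for Rvb2 and 0.31 for Pgk1 gene bodies. Correcting counts for the ceiling took the Pgk1 medians to 0.06 at promoters and 0.06 at gene bodies, from 0.21 and 0.19, and left the difference from other windows at 0.31 and 0.32. With 1 library left out, the Pgk1 promoter median ran from 0.02 to 0.40, gene body medians from 0.43 to 0.65 (Rvb1), 0.27 to 0.60 (Rvb2) and 0.02 to 0.39 (Pgk1), the members in lists from 64 to 76, and the divergent share from 60.1% to 70.7%, which by the mean of the 4 pulldowns was 69.2%. Across all alternatives of membership the lists held 10 to 11 glycolytic, 4 to 7 storage carbohydrate, 3 to 9 general stress, 3 to 7 histone, 4 to 6 permease, 4 to 6 transcription factor, 3 to 6 mitochondrial ribosomal protein and 0 to 3 respiratory chain members.

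Members called, with 1 library left out, ran from 0 to 5 for Pgk1 promoters over input, 0 to 7 for Pgk1, 0 to 12 for Rvb1 and 0 to 0 for Rvb2 gene bodies over input, and, against Pgk1, 0 to 220 for Rvb1 and 0 to 2 for Rvb2 promoters and 0 to 105 for Rvb1 and 0 to 2 for Rvb2 gene bodies. For Rvb1 gene bodies over input the count was 2 with RLE scaling, 0 with DESeq2 and 200 with the 3 inputs as 1 group, which adds samples to the input arm and called 48.9% of all windows. The ranges with 1 library left out count members alone, and the calls over all windows also changed in those fits. For Rvb1 gene bodies over input, the highest count came with a share of members below that of all windows. For Pgk1 over input and Rvb1 against Pgk1, at promoters and gene bodies, it came with a share above that of all windows. Each of these highest counts is from a fit that leaves 1 library in a group, so nothing is read from them. With DESeq2, 89 members (29.7%) were called for Rvb2 promoters against Pgk1, and 3.14% of all windows. With the 6 pulldowns alone, 18 members (6.0%) were called for Rvb1 promoters, near the 6.23% of all windows. For gene bodies 4 members (1.33%) were called for Rvb1 and 2 (0.667%) for Rvb2, against 1.82% and 0.412% of all windows. Replicate numbers do not pair samples by the labels, although deviations of same-numbered libraries correlated at 0.74 between Rvb1 and Rvb2, 0.27 between Rvb1 and Pgk1 and 0.34 between Rvb2 and Pgk1, over 2 numbers. With the number as a replicate block among the pulldowns, 126 Rvb1 and 0 Rvb2 promoters and 87 Rvb1 and 10 Rvb2 gene bodies were called, of 1517, 37, 1475 and 77 windows in all. Where no cause is named it was not tested. Contrasts over own input have no fit without that single input, and GC content and motifs were not run. Depth limits the first Pgk1 library most, at 71 to 563 reads per member promoter.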
